A study of Mus musculus with 7 samples.

Results

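Related transcription factor genes were followed in RNA-seq counts of the neonatal mouse dorsal midbrain: Pou4f1, Pou4f2, Pou4f3, Isl1, Isl2 and Atoh7. They were chosen by symbol and make up 6 of the 52636 genes counted. All 6 were found in the files, and 5 passed the filter on low counts. The study asked what the loss of Brn3b (the protein of Pou4f2) does to the midbrain, and collected whole dorsal midbrains from 7 mice, each sequenced as 1 library. The controls were 3 mice labelled as heterozygotes (libraries A2 and A6 at P4 and A4 at P3). They carried 1 conditional and 1 wild-type Brn3b allele. The conditional knockout (cKO) mice were 4 mice labelled as homozygotes (B1 and B8 at P4, B7 and B9 at P2), with 1 conditional and 1 null allele. Both groups carried En1-Cre, which recombines in the midbrain and hindbrain, so both had lost the conditional copy in cells of that lineage. The recombined allele keeps the Brn3b promoter and expresses human placental alkaline phosphatase from it, in place of the Brn3b open reading frame. The control was thus a 1-copy state and not a wild type. P2 was sampled only in cKO mice and P3 only in a control, so age and genotype cannot be fully told apart. Both sexes were used.

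The Brn3 proteins are POU-homeodomain transcription factors that bind DNA late in the development of particular neurons. Brn3a (Pou4f1) is known for sensory ganglia, habenula and the roof of the midbrain, Brn3b (Pou4f2) for retinal ganglion cells, and Brn3c (Pou4f3) for the hair cells of the inner ear. In the retina the basic helix-loop-helix factor Atoh7 makes progenitors competent to become ganglion cells and acts upstream of Pou4f2 and of the LIM-homeodomain gene Isl1. Isl1 protein works beside Brn3b on shared targets, and Isl2, its close relative, marks a subset of ganglion cells and motor neurons.

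The libraries held 23588248 to 87572085 counts on genes. CPM values are counts scaled to a library total of 1000000, with TMM factors (trimmed mean of M values). All 8 markers listed for the dorsal midbrain had counts in every library, from Tal2 at 0.996 to 1.90 CPM to Tfap2b at 520 to 944.5 CPM. Among them Otx2, which the choroid plexus also expresses, was at 96.3 to 121.5 CPM. Hindbrain Hox genes summed to at most 0.212 CPM and 4 of 8 had no count in any library. Markers listed for the telencephalon summed to 39.88 to 55.56 CPM in controls, highest in A4, and to 33.55 to 45.01 CPM in cKO mice. Retinal genes summed to between 1.96 and 4.11 CPM, with the photoreceptor gene Crx at most at 0.05 CPM and the eye field gene Rax at 0 in all libraries other than B8. B8 stood apart from the other cKO libraries: edgeR called 1 gene across all 7 libraries, and 9867 when B8 was left out. Red blood cell markers summed to 132.5 to 497.4 CPM in controls, highest in A4, and to 58.3 to 181.1 CPM in cKO mice.

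In the counts per gene, Pou4f2 itself fell to 22.3% of its control level and did not vanish. On chromosome 8 (GRCm38, chr8:78433010-78436645, minus strand, 2 exons) it received 1121, 1899 and 1254 counts in A2, A4 and A6. The cKO libraries B1, B7, B8 and B9 held 271, 623, 432 and 985. In CPM the controls averaged 46.6 ± 0.824 (SD, n = 3) and the cKO mice 10.4 ± 0.920 (SD, n = 4), with no overlap. The log2 fold change was -2.16 (SE 0.132, 95% interval -2.46 to -1.87). edgeR's quasi-likelihood test gave an adjusted p of 0.000566, the lowest of the 21817 genes tested, and Pou4f2 was the 1 gene called (0.00458% of all tested, lower in cKO). At P4 alone the residual level was 22.0% of the P4 controls, with a log2 fold change of -2.18. The edgeR adjusted p of 0.192 in that 2 against 2 comparison missed the threshold. Unlike these counts, the paper's RT-qPCR on independent samples found almost no Brn3b transcript in cKO mice. Its immunostaining also showed loss of the Brn3b protein.

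The residual level lay in a narrow range in the 4 cKO mice. Relative to the control mean, B1 kept 20.7% (95% counting interval 18.3 to 23.3), B7 20.8% (19.2 to 22.5), B8 22.8% (20.7 to 25.1) and B9 24.9% (23.3 to 26.5). These are exact Poisson intervals and cover counting error only. The highest (B9) and 1 of the lower pair (B7) were both P2 mice, and their intervals did not overlap. In bulk tissue, fewer cells with the transcript and less transcript per cell cannot be told apart, and counts per gene do not tell which allele or exon a read came from. So the residual counts cannot be divided between the conditional and the null allele here. Nor do they show that intact Brn3b transcript remained. Levels of Pou4f2 given below are of all counts on the gene.

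The paralogs share stretches of identical bases, and the longest is shown here because reads from it could in principle be placed on either gene. The longest stretch that Pou4f1 and Pou4f2 transcripts share is 71 bases, in exon 2 of both (GENCODE vM21). It lies in the coding sequence, at chr8:78435062-78435132 in Pou4f2 and chr14:104466054-104466124 in Pou4f1, both on the minus strand. All its letters are identical, so none are in capitals, and it reads 5′ to 3′ as follows:
Pou4f1 and Pou4f2: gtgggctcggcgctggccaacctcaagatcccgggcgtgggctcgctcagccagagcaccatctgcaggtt
It is shorter than the 100-base reads, and each read was 1 of a pair. Pou4f1 shared at most 41 bases with Pou4f3, and Pou4f2 shared at most 35 with Pou4f3. A read of full length therefore holds some bases that differ between the genes.

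The promoter of Pou4f2 is the sequence that the conditional allele retains and that drives the reporter in both genotypes. RefSeq promoter sequences (GRCm38.p6, the same chromosome coordinates as the build of the files) gave bases before the gene start for 4 of the 6 members, and for the factor that was lost, its most abundant paralog and its retinal upstream factor these are given 5′ to 3′ on the gene's strand. Capitals mark the E-box letters CAGCTG or CAGATG, hexamers of the kind that basic helix-loop-helix factors such as Atoh7 bind, searched on both strands. The regions are chr8:78436648-78436897 for Pou4f2 (minus strand), chr14:104468000-104468249 for Pou4f1 (minus strand) and chr10:63099535-63099650 for Atoh7 (plus strand):
Pou4f2: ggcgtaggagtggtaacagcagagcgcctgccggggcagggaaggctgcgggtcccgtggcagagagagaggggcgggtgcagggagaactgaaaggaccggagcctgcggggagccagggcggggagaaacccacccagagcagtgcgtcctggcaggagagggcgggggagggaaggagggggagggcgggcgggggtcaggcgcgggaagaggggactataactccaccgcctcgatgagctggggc
Pou4f1: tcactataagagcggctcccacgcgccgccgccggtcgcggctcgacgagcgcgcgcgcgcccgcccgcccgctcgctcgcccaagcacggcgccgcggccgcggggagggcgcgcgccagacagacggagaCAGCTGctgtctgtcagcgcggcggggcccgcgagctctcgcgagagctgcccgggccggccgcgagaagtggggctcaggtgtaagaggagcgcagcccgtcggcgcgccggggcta
Atoh7: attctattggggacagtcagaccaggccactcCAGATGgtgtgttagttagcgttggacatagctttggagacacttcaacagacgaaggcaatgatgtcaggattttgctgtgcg
The 250 bases of Pou4f2 held neither hexamer, those of Pou4f1 held 1 CAGCTG and the 116 bases of Atoh7 held 1 CAGATG. The 249 bases of Isl1, which are not printed, held 1 CAGCTG. Among 32851 mouse promoters, windows of 250 bases held CAGCTG in 13% and CAGATG in 14.4%. The homeodomain core TAATTA, in 4.84% of promoters, was in none of these windows. A match is a description of the letters and not a bound site.

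**Figure D1:**
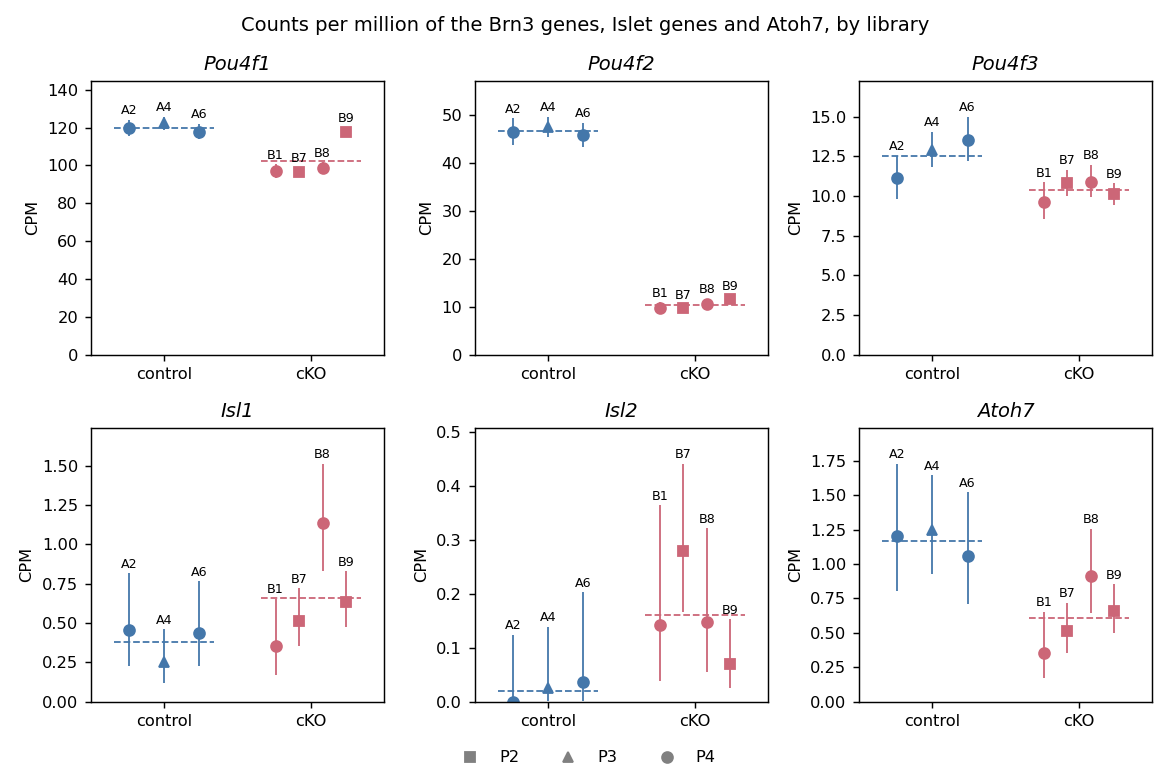
TMM-scaled CPM (vertical axes, each from 0) of the 6 genes in each library, with controls in blue and cKO mice in red. Symbols give the postnatal day, bars are exact 95% Poisson intervals of the counts (for the count of 0, up to 3 counts) and dashed lines are group means. All 4 cKO libraries lie between 9.65 and 11.6 CPM of Pou4f2 against 45.8 to 47.4 CPM in controls, and the Isl1 panel shows B8 far above the rest.

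The other Brn3 genes were not higher in the bulk tissue of cKO mice, and neither passed the adjusted test. Pou4f1 (chr14:104461676-104467999, minus strand, 3 exons) stood at 119.7, 122.2 and 117.8 CPM in the controls A2, A4 and A6. The cKO libraries B1, B7, B8 and B9 were at 96.98, 96.32, 98.66 and 117.7 CPM. B1, B7 and B8 lay close together below every control, while B9 came within 0.1 CPM of A6. The means were 119.9 ± 2.24 (SD, n = 3) and 102.4 ± 10.2 CPM (SD, n = 4), which is 85.4%. The fit gave a log2 fold change of -0.23 (SE 0.123, 95% interval -0.50 to 0.05) and an edgeR adjusted p of 0.226. The interval reaches up to a fold of 1.034 and down to 0.706, so a rise of Pou4f1 by more than this upper bound lies outside it. With RLE size factors B9 (118.3 CPM) passed the lowest control (117.6 CPM) and the groups overlapped.

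Pou4f3 differed by a similar small amount. On chromosome 18, on the plus strand with 2 exons, it gave 11.12, 12.89 and 13.55 CPM in A2, A4 and A6 and 9.65, 10.8, 10.9 and 10.1 CPM in B1, B7, B8 and B9. The highest cKO library (B8) was just under the lowest control (A2), so the groups did not overlap. The cKO mean of 10.4 ± 0.601 CPM (SD, n = 4) was 82.8% of the control mean of 12.5 ± 1.26 CPM (SD, n = 3). The log2 fold change of -0.27 (SE 0.153, 95% interval -0.61 to 0.07) had an edgeR adjusted p of 0.240. Its fold interval ran from 0.653 to 1.05. Markers of sensory and mesencephalic trigeminal neurons, cells in which Brn3 genes are also known, summed to 25.2 to 33.9 CPM in controls and 29.5 to 37.0 CPM in cKO mice. Piezo2 made up most of this sum (13.6 to 28.7 CPM), Avil was present in every library (2.82 to 3.70 CPM) and Runx3 was at or near 0. Their part in the levels of Pou4f1 and Pou4f3 was not tested.

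To set the 3 paralogs beside each other, their CPM were divided by the length of their exons in kilobases (kb). In controls the order was Pou4f1 at 25.7 ± 0.479, Pou4f2 at 14.5 ± 0.257 and Pou4f3 at 5.22 ± 0.524 CPM per kb (SD, n = 3), with no overlap between neighbours. In cKO mice Pou4f1 stayed first at 21.9 ± 2.19, Pou4f3 was second at 4.32 ± 0.251 and Pou4f2 last at 3.24 ± 0.287 CPM per kb (SD, n = 4), so the lower pair changed places, again without overlap. The sum of the 3 genes was 44.8, 46.3 and 45.1 CPM per kb in A2, A4 and A6 and 27.8, 28.1, 29.0 and 33.0 in B1, B7, B8 and B9. The summed Brn3 level was lower in every cKO library than in any control, with a mean of 64.9% of the control mean.

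Of the difference in the sum, 15.9 CPM per kb, Pou4f2 made up 11.3 CPM per kb or 70.9%. The mean of Pou4f1 was lower by 3.74 and that of Pou4f3 by 0.896 CPM per kb. Together these paralogs stood at 30.9 CPM per kb in controls and 26.2 in cKO mice, or 85.0%. In whole dorsal midbrain their transcript levels did not make up for the part lost from Pou4f2. Levels within the cells that express Pou4f2 are not resolved in bulk tissue, and what the proteins do was not measured.

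**Figure D2:**
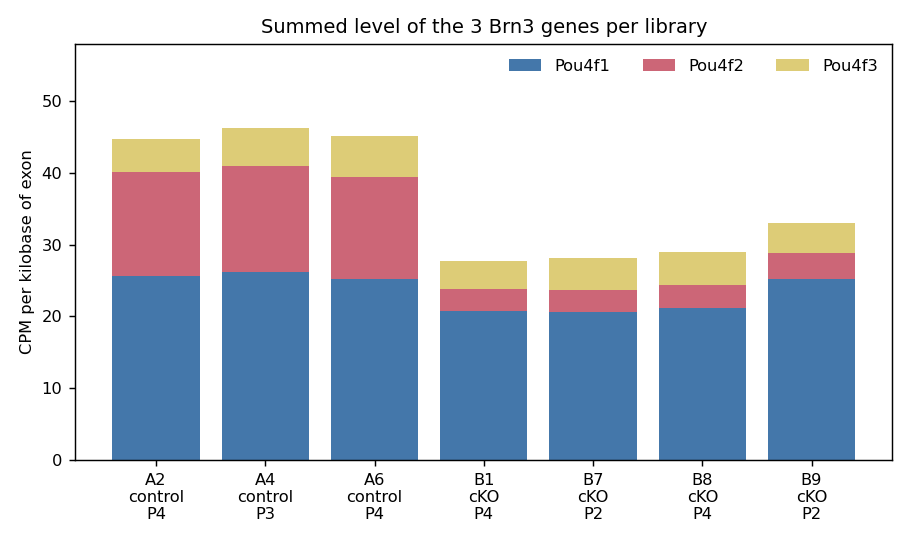
Stacked bars of the levels of Pou4f1, Pou4f2 and Pou4f3 in each library, in TMM-scaled CPM per kilobase of exon (vertical axis from 0), with group and postnatal day under each bar. The summed level is 44.8 to 46.3 in the controls and 27.8 to 33.0 in the cKO mice, and the Pou4f2 segment shrinks while the Pou4f1 and Pou4f3 segments do not grow.

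The make-up of the family differed between the genotypes. The share of Pou4f1 in the summed level went from 56.5% ± 0.696 (SD, n = 3) to 74.3% ± 1.57 (SD, n = 4) and that of Pou4f3 from 11.5% ± 1.08 to 14.7% ± 1.48, while Pou4f2 went from 32.01% ± 0.383 to 10.99% ± 0.326. These shares were not tested, and a share of one gene rises when another falls without any gain of its own. The level of Pou4f1 over that of Pou4f2 was 1.765, 1.767 and 1.764 in the 3 controls, a spread of under 0.004. Counting error is wider than this: Pou4f2 in A2 had a counting interval of 43.8 to 49.3 CPM. So closeness of this degree is not resolved by the counts. In cKO mice it was 6.89, 6.83, 6.36 and 6.97. The ratio of Pou4f1 to Pou4f3 overlapped between groups, at 4.95 ± 0.537 and 5.09 ± 0.652.

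Atoh7, the gene that precedes Pou4f2 in retinal progenitors, was lower in every cKO library but missed the adjusted threshold. It is a single-exon gene (chr10:63099651-63101279, plus strand) that was rare here, with 29, 50 and 29 counts in A2, A4 and A6 and 10, 33, 37 and 56 counts in B1, B7, B8 and B9. That equals 1.20, 1.25 and 1.06 CPM in the controls, against 0.356, 0.512, 0.911 and 0.658 CPM. Every cKO library was below every control, and B8 was the cKO library nearest to them. The mean went from 1.17 ± 0.0991 (SD, n = 3) to 0.610 ± 0.236 CPM (SD, n = 4), or 52.1%, and pooled counts gave a ratio of 0.528 (exact counting interval 0.407 to 0.687).

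In the fit the log2 fold change of Atoh7 was -0.93 (SE 0.373, 95% interval -1.77 to -0.10). The edgeR unadjusted p was 0.0323 and the adjusted p 0.144, so the gene was not called. The edgeR call appeared without B8 (-1.17, adjusted p 0.0266), where 23.1% of all genes were called lower. It also appeared with limma-voom and sample weights (-1.09, adjusted p 0.0155; 24.3% of genes called lower) and with DESeq2 without B8 (-1.16, adjusted p 0.0344; 18.9% called lower). DESeq2 on all libraries gave an adjusted p of 0.0979. These settings called a large share of all genes, so the call of Atoh7 under them is not particular to it. The 8 retinal markers summed to 3.32 to 3.67 CPM in controls and 1.96 to 2.78 CPM in B1, B7 and B9, below the controls as Atoh7 was, while B8 at 4.11 CPM was above every control. Their part in the level of Atoh7 was not tested.

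Isl1 was close to the limit of detection and was not lower in the cKO mice as a group. It lies on chromosome 13 (chr13:116298281-116309689, minus strand, 6 exons) and had 11, 10 and 12 counts in A2, A4 and A6 and 10, 33, 46 and 54 counts in B1, B7, B8 and B9. The controls were at 0.456, 0.250 and 0.438 CPM, and the cKO libraries at 0.356, 0.512, 1.13 and 0.635 CPM. B1 lay inside the control range and B8 far above it. The log2 fold change was 0.82 (SE 0.503, 95% interval -0.31 to 1.95) with an edgeR adjusted p of 0.278. Pooled counts gave a cKO to control ratio of 1.82 (exact counting interval 1.24 to 2.74), which leaves out the spread between mice. Without B8 the log2 fold change was 0.45, and Isl1 was still not called.

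B8 was also the highest library for some other genes. En1, which was among the 3 genes most like Isl1, stood at 12.3 CPM in B8 and at 2.78, 5.39 and 7.78 CPM in B1, B7 and B9, against 3.05 to 3.48 CPM in controls. En1 is also 1 of the 8 dorsal midbrain markers, but their sum, most of it Tfap2b, was lowest in B8, at 916.5 CPM against 965.8 to 1472 CPM in the other libraries. Further genes that were highest in B8 were chosen after their values were seen: the LIM-homeodomain gene Lhx4 at 2.83 CPM in B8 and at most 0.761 elsewhere, and the choline transporter gene Slc5a7 at 4.83 CPM in B8 and at most 3.55 elsewhere. The 7 cranial motor markers summed to 14.0 CPM in B8, 4.95 to 7.43 CPM in the other cKO libraries and 4.75 to 8.42 CPM in controls. Of these, Prph (5.71 CPM) and Slc18a3 (3.06 CPM) were also highest in B8, while Chat was at most at 0.249 CPM in any library and Mnx1 had counts in A2 alone. Their part in the level of Isl1 was not tested.

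**Figure D3:**
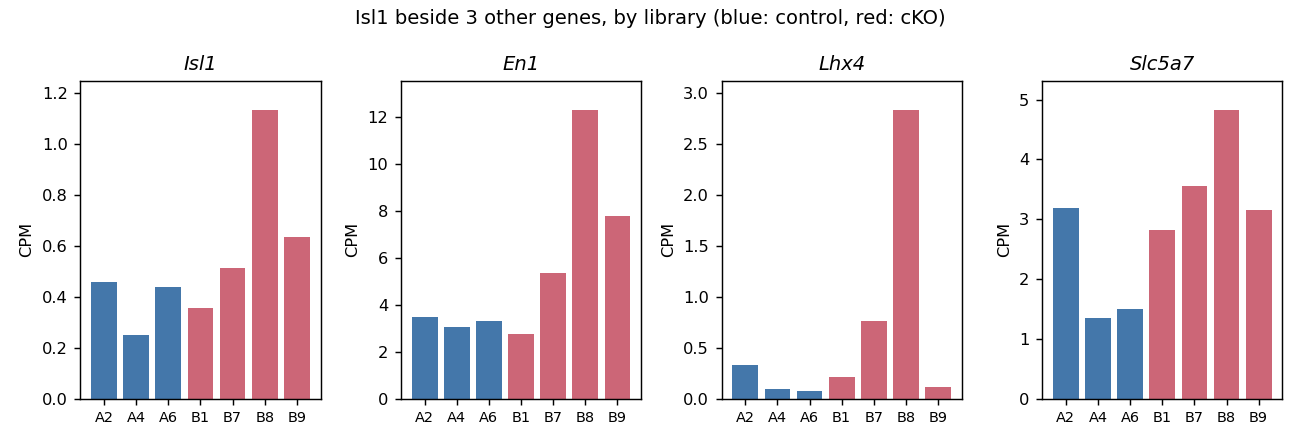
Bars give the TMM-scaled CPM (vertical axes from 0, one scale per gene) of Isl1, En1, Lhx4 and Slc5a7 in the 3 control (blue) and 4 cKO (red) libraries. B8 is the tallest bar in each panel, at 1.13 CPM of Isl1 and 12.3 CPM of En1.

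Isl2 did not pass the filter on low counts, and the main fit holds no value for it. It lies on chromosome 9 (chr9:55538672-55546180, plus strand, 6 exons). Controls had 0, 1 and 1 counts in A2, A4 and A6, where a count of 0 in A2 allows up to 0.124 CPM (3 counts), and cKO libraries had 4, 18, 6 and 6. As counted, the cKO libraries stood at 0.0705 to 0.279 CPM and the controls at 0 to 0.0365 CPM, but the limit for A2 lies above B9 (0.0705 CPM), so a full separation of the groups was not detectable at this depth. Summed over groups the counts were 2 and 34, a cKO to control ratio of 7.13 after scaling to library size, with an exact counting interval of 1.83 to 61.3. When all genes with at least 1 count were tested, edgeR gave a log2 fold change of 2.89 with an adjusted p of 0.167. B7 alone supplied 18 of the 34 counts, and the controls A2 and A6 were the shallowest libraries. The longest stretch that the transcripts of both Islet genes share is printed because their counts are so low:
Isl1 and Isl2: cggactgtgctcaacgagaagca
At 23 bases, all of them identical and so without capitals, it is far shorter than a read.

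Per kilobase of exon, the 6 genes as counted spanned more than 3 orders of magnitude in controls. Below Pou4f3 came Atoh7 at 0.719 ± 0.0609, Isl1 at 0.0964 ± 0.0289 and Isl2 at 0.00935 ± 0.00851 CPM per kb (SD, n = 3). As counted, neighbours in this order did not overlap. Isl2 rests on 0, 1 and 1 counts in A2, A4 and A6, so its distance from Isl1 and the full span are not resolved. With the length of the longest transcript in place of all exons, Isl1 stood at 0.152 CPM per kb. In cKO mice the values were 0.374 ± 0.145 for Atoh7, 0.167 ± 0.0849 for Isl1 and 0.0730 ± 0.0397 for Isl2 (SD, n = 4). In that group Atoh7 and Isl1 overlapped, as did Isl1 and Isl2. The dorsal midbrain therefore held far more Brn3 than Islet transcript in both genotypes.

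Read against all genes, the downward direction of the Brn3 genes and Atoh7 is a count and not a test. Every cKO library was below every control for Pou4f1, Pou4f2, Pou4f3 and Atoh7, 4 of the 5 members tested. This held for 8.01% of all genes tested. Pou4f2 is the deleted gene, so its fall follows from the design. For Pou4f1, Pou4f3 and Atoh7 the counting intervals of the nearest cKO and control libraries overlapped. With RLE size factors the groups themselves overlapped for Pou4f1. At an unadjusted edgeR p under 0.05, Pou4f2 and Atoh7 were lower (2 of 5), against 13.7% of all genes, and no member was higher, against 16.7%. DESeq2 called Pou4f2 alone among the members, where it called 2.82% of genes lower. The exact permutation test over the 35 ways to draw 3 of 7 libraries gave a one-sided p of 0.0286 for Pou4f1, Pou4f2, Pou4f3 and Atoh7, and for Isl2 if the 0 counts of A2 are read as 0. This p is the smallest the design allows, and the smallest two-sided p is 0.0571. Isl1 gave a two-sided exact p of 0.229. The median log2 fold change of all genes was 0.003.

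**Figure D4:**
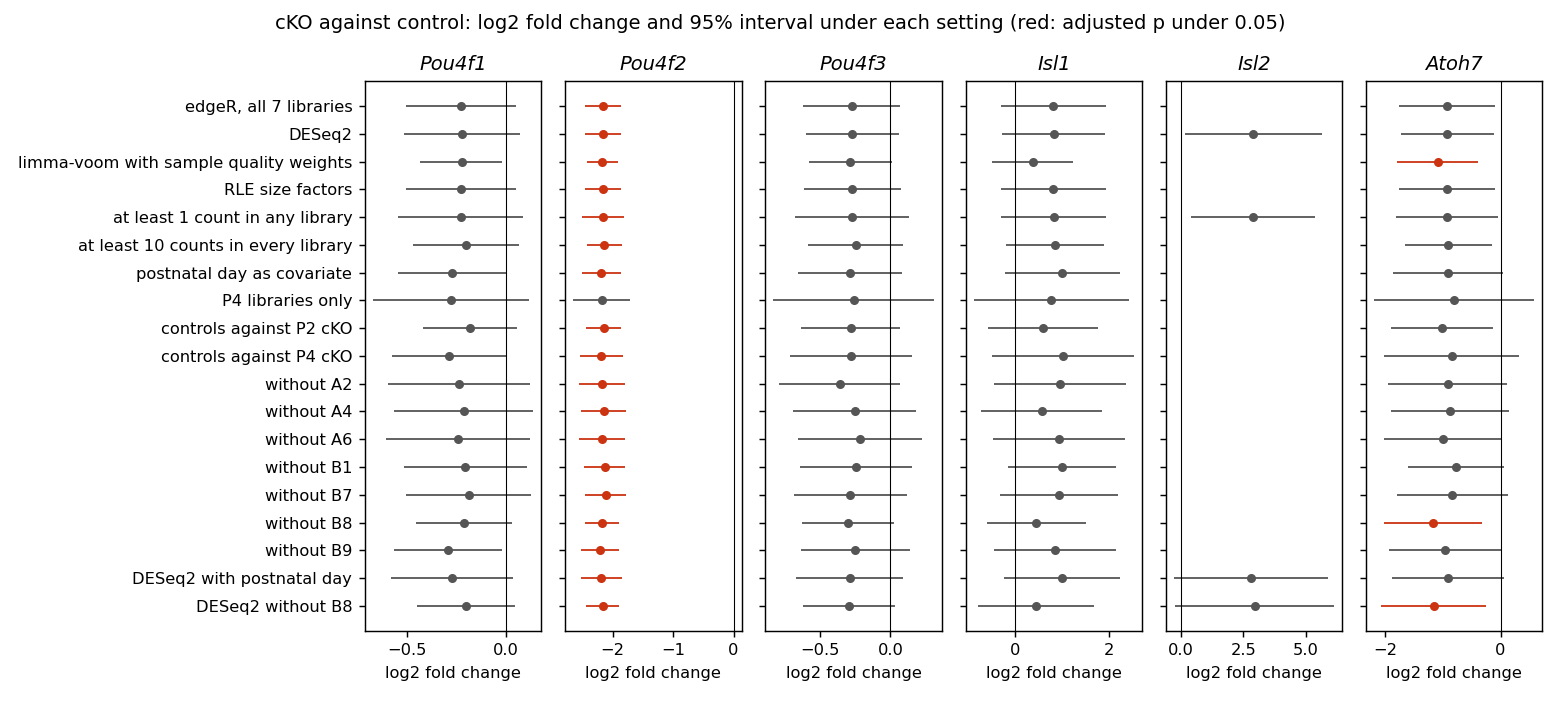
Log2 fold change of cKO over control (horizontal axes, one scale per gene) with 95% intervals for the 6 genes under the main fit (top) and each other setting. Red marks an adjusted p under 0.05: Pou4f2 is red in all settings other than the P4 libraries alone, and Atoh7 in 3 of them. Isl2 has a value only in the 4 settings that kept it.

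The picture of the Brn3 genes was similar at P4, the only age with both genotypes. It was also similar in P2 cKO mice, which could be set only against controls of other ages. Among P4 mice alone (2 controls, 2 cKO), the cKO mean was 82.4% of the control mean for Pou4f1, 22.0% for Pou4f2, 83.4% for Pou4f3 and 56.0% for Atoh7. The P2 cKO mice stood at 89.3%, 22.8% and 83.5% of the mean of all controls for the 3 Brn3 genes, and at 0.585 CPM of Atoh7, against 0.634 CPM in the P4 cKO mice. Without B8, the library that stood apart, the log2 fold changes were -0.21 for Pou4f1, -2.18 for Pou4f2 and -0.30 for Pou4f3, on the same side of the threshold as with it. With 2 mice against 2 the smallest two-sided p of an exact permutation test is 0.333. Against all 3 controls, edgeR called Pou4f2 in the P2 cKO mice (adjusted p 1.755e-05) and in the P4 cKO mice (adjusted p 0.0204). The P2 comparison called 24% of all genes tested lower and 10425 genes in either direction, with Pou4f2 at rank 5 by p, and the P4 comparison called 0.00476% lower, Pou4f2 alone.

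The genes whose levels ran most like each member were found by correlation. By Pearson's r of log2 CPM over 7 libraries, among about 11700 protein-coding genes of at least 5 CPM, Pou4f2 ran closest to Fabp5 (r = 0.948), Fam241a (0.943) and Dusp22 (0.942). Fabp5, a fatty acid binding protein, averaged 189 ± 15.9 CPM in controls against 121.2 ± 12.3 CPM with the deletion, with an edgeR adjusted p of 0.138. Pou4f1 ran closest to Vps16 (0.975), Xrcc6 (0.950) and Fbxw2 (0.936), and Pou4f3 to Umad1 (0.965), 9430038I01Rik (0.964) and Dlgap1 (0.961). Atoh7 ran with BC005624 (0.993), Cir1 (0.990) and Ppa2 (0.989), and Isl1 with Prorsd1 (0.937), En1 (0.927) and Itih3 (0.898). The 7 points share the genotype split and the offset of B8, and with so few points such values are a description only.

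The wider pathways were read from 4 lists of related genes, 65 in all, of which 56 were tested. edgeR called none of them at an adjusted p under 0.05, and 17 had an unadjusted p under 0.05, 7 higher and 10 lower. That is 12.5% and 17.9% of those tested, close to the 16.7% and 13.7% over all genes. With limma-voom and sample weights, 7 of the retinal list, 7 of the POU list, 11 of the LIM list and 4 of the proneural list were called, where 24.3% of all genes were called lower and 24.2% higher. DESeq2 called 1, the POU gene Pou3f4, which was higher (DESeq2 adjusted p 0.042, with 7.15% of all genes called higher). Its level was 17.2 ± 1.23 CPM in controls, and 30.2, 34.7, 16.9 and 39.3 CPM in B1, B7, B8 and B9, so that B8 lay inside the control range.

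Among 18 tested genes of the retinal ganglion cell programme downstream of Brn3b and Isl1, 1 was higher and 3 were lower at the unadjusted threshold, and the median log2 fold change was -0.19. The 3 with the highest level did not pass the adjusted test. Stmn2, which regulates microtubules in growing axons, went from 1828 ± 119.1 CPM to 1496 ± 151.1 CPM with an edgeR adjusted p of 0.151. Gap43, a growth cone protein, went from 1252 ± 114.7 to 1103 ± 101.2 CPM (edgeR adjusted p 0.321), and Olfm1 from 499.1 ± 41.3 to 475.2 ± 27.4 CPM (edgeR adjusted p 0.690).

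The other POU genes, relatives of the Brn3 genes, had 3 higher and 0 lower of 9 tested at the unadjusted threshold, with a median of 0.19. The most abundant were Pou3f2 at 96.2 ± 6.16 and 123.2 ± 33.0 CPM in controls and cKO mice (edgeR adjusted p 0.251), Pou3f3 at 87.1 ± 5.58 and 117.3 ± 22.0 CPM (0.140), and Pou6f1 at 92.9 ± 2.27 and 105.8 ± 10.03 CPM (0.305). In Pou3f2 and Pou3f3, B8 lay inside or below the control range. Without B8, edgeR called 4 of the POU genes higher and 3 lower, where 23.7% and 23.1% of all genes were called.

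LIM-homeodomain genes and their cofactors had 3 higher and 5 lower of 18 tested at the unadjusted threshold, with a median of 0.17. Lmo3, a LIM-only cofactor, was at 207.5 ± 13.7 and 242.5 ± 56.4 CPM in controls and cKO mice (edgeR adjusted p 0.401). Ssbp3, a partner of the LIM-domain binding protein Ldb1, was at 232.5 ± 17.2 and 206.1 ± 20.8 CPM (0.356), and Lhx9 at 174.6 ± 8.86 and 220.3 ± 61.6 CPM (0.283). The proneural and earlier regulators had 0 higher and 2 lower of 11 tested and a median of -0.05. Sox11 was at 437 ± 88.1 and 420.8 ± 112 CPM (edgeR adjusted p 0.880), Sox4 at 196.7 ± 43.9 and 142.7 ± 26.4 CPM (0.146) and the Notch target Hes5 at 31.3 ± 6.85 and 15.6 ± 8.47 CPM (0.138).

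**Figure D5:**
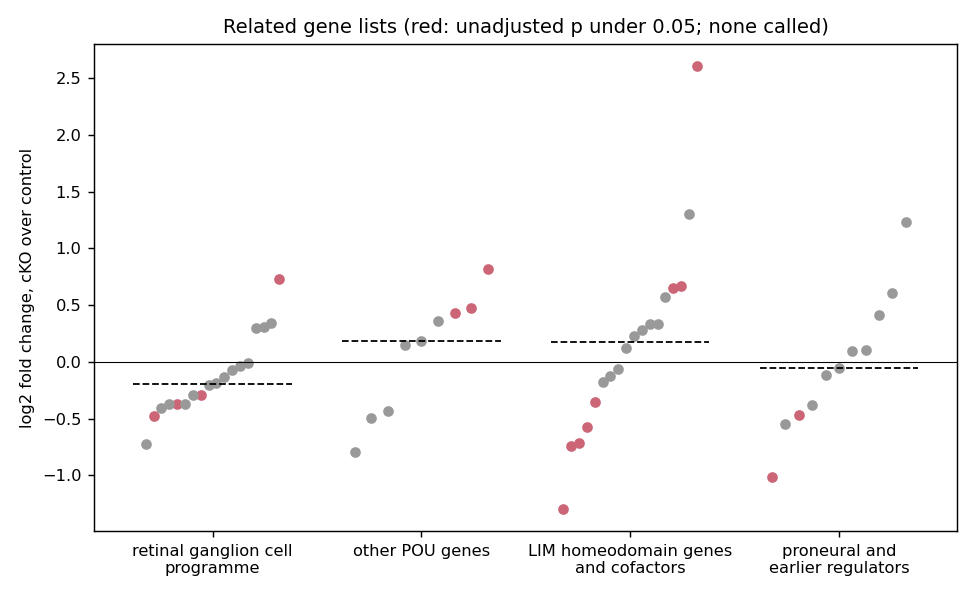
Log2 fold change of cKO over control (vertical axis) for the tested genes of 4 lists, each sorted by value, with dashed lines at the list medians. Red points had an unadjusted edgeR p under 0.05. None of the 56 genes passed the adjusted threshold, and the medians lie between -0.19 and 0.19.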

How the data were processed

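Dorsal midbrains of 7 mice were sequenced as strand-specific polyA libraries with paired 100-base reads. The authors trimmed the reads, aligned them with TopHat2 and Bowtie 2 to GRCm38.p5 and used HTSeq with GENCODE vM15 to count them per gene. The strand and overlap options are not given in the sources used here. The deposited values are raw counts for 52636 genes. Entries that name no gene were left out of library sizes and tests (30.98% to 38.18% of all counts). Counts per gene do not resolve alleles or exons.

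Genes were mapped to GENCODE vM21 symbols (52403 of 52636 identifiers matched), which also gave exon lengths. Tests used edgeR 4.0.16 in R 4.3.3: filterByExpr (minimum count 10, minimum total 15; 21817 genes kept), TMM factors, glmQLFit and glmQLFTest with genotype as the only term, and Benjamini-Hochberg adjustment over all genes tested, with a threshold of 0.05. CPM used TMM library sizes, and log2 CPM added a prior count of 2. Exact Poisson intervals cover counting error only. p-values measure the spread between mice. Alternatives were DESeq2 1.42.0, limma-voom with sample quality weights (limma 3.58.1), RLE factors, other filters, postnatal day as a covariate, age subsets and leaving out each library. Scripts were tested on simulated data.

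The members and gene lists were chosen with earlier results of these data known. The genes named are the members, the 3 genes most like each tested member, and from each list those called or otherwise the 3 with the highest mean CPM. Pou3f4, Lhx4 and the single genes of the marker lists (Otx2, Tfap2b, Tal2, Crx, Rax, Piezo2, Avil, Runx3, Slc5a7, Prph, Slc18a3, Chat and Mnx1) were named after their values were seen. Some marker genes are not reported here and were left out of the marker sums. Libraries of a group differed by more than sampling noise (chi-square per degree of freedom 8.37 to 241.9), so each counted as 1 replicate.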

Additional observations from a re-analysis of the deposited data

Results flagged for a closer look

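The level of Pou4f1 in the cKO mice held 1 library far from the others: B9 stood at 117.7 CPM against 96.3 to 98.7 CPM in B1, B7 and B8. The gap made up 0.891 of the range of the 4 libraries, above Dixon's limit of 0.829. B9 was the deepest library and 1 of 2 at P2, and the other P2 library, B7, was the lowest of the 4. Their part in this gap was not tested. Without B9 the log2 fold change of Pou4f1 was -0.29, and it was not called. This was 1 of 10 results examined, of which chance would flag about 0.5.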

How the results depend on the processing

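No member changed direction under any setting run. Pou4f2 was past the threshold in all settings other than the P4 libraries alone (-2.18). Atoh7 passed with limma-voom (-1.09), with edgeR without B8 (-1.17) and with DESeq2 without B8 (-1.16, a setting chosen after seeing the data), and ranged from -1.17 to -0.77 when each library was left out. The other ranges were -0.29 to -0.19 for Pou4f1, -2.21 to -2.12 for Pou4f2, -0.36 to -0.21 for Pou4f3 and 0.45 to 1.00 for Isl1. The number of genes called, 1 with edgeR, was 1932 with DESeq2, 10583 with limma-voom, 10425 against the P2 cKO mice, 28 with DESeq2 and postnatal day, 9930 with DESeq2 without B8, and 1 to 9867 when each library was left out. With the P4 libraries alone edgeR called 0, and 245 genes had an unadjusted p under 0.05. Called genes in the retinal ganglion cell list, 0 with edgeR, were 7 with limma-voom, 9 against the P2 cKO mice, 7 with DESeq2 without B8 and 0 to 7 when each library was left out. For the other POU genes they were 1 with DESeq2, 7 with limma-voom, 7 against P2, 7 with DESeq2 without B8 and 0 to 7. For the LIM-homeodomain list they were 11, 10, 10 and 0 to 10 in the same order without DESeq2 on all libraries, and for the proneural list 4, 3, 3 and 0 to 2. The cause was not tested. With the longest transcript as length, Pou4f1 stood at 27.0 and Isl1 at 0.152 CPM per kb in controls. By Spearman's rho 4 of the 15 genes most like a member stayed among the closest 3. No paired analysis was possible because the labels give control and cKO mice no common numbers. Isl1, Isl2 and Atoh7 rest on 0 to 56 counts per library, which limits what can be said of them.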
